A study of Rattus norvegicus with 5 samples.

Results

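The 3 lung nodules and the irradiated primary tumour of a rat glioma grafted into nude mice were compared across all genes. These are 4 of the 5 samples of the series, chosen by their titles alone, and 18913 features could be compared, of which 11104 carry a gene name. All tumours grew from C6-L cells, a derivative of the rat C6 glioma line, in BALB/c nu/nu hosts whose age is given as 6 weeks. The nodules and the irradiated primary were collected 6 weeks after γ-irradiation. The fifth sample, a non-irradiated primary, was collected 6 weeks after grafting. Its values are given beside the others, and where nodules are set against them this is a reading of 1 array without a test. No dose and no graft site is named in the labels, and whether the nodules grew in separate mice, or in the mouse of the irradiated primary, is not given. Each sample was hybridised to 1 single-colour Agilent rat array. Values are log2 signals minus the 75th percentile of the array, so 0 is the array's own 75th percentile and 1 unit is a 2-fold step. Each fitted difference is the mean of the nodules minus the irradiated primary, with its standard error (SE), and rose or fell is written only where limma gave an adjusted p under 0.05.

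A metastasis forms when tumour cells leave the primary site, travel in the blood and grow again in a new organ, for which the lung is a common place. The tissue around the cells then differs: a graft can touch muscle, fat and skin, and a lung nodule touches alveoli, airways and pulmonary vessels. Nude mice lack a thymus and have few mature T cells, while macrophages, natural killer cells and interferon responses remain. Irradiation kills part of a tumour, halts other cells through p53, and can switch on interferon and inflammatory genes. In tissue RNA, fewer cells of a type and less RNA per cell cannot be told apart, and rat probes may also read transcripts of the mouse host.

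The share of gene spots well above background was 69.8 to 73.5% per array, with 0 saturated spots. Over all probes the nodules correlated with each other at 0.985 to 0.992 and with the irradiated primary at 0.975 to 0.981, as a description of arrays that share a design and a slide. The nodules lay in 1 row of the slide and the primaries in another, so an effect of the row and an effect of the group cannot be told apart. With 3 samples against 1, an exact permutation test cannot go below a two-sided p of 0.5. The p-values printed here come from limma, in which the irradiated primary is assumed to vary as the nodules do, and they measure only the spread between these 3 nodules. Without nodule 2, 0 features passed limma (2690 had an unadjusted p under 0.05, and the smallest adjusted p was 0.0513), so each count of calls given below is then 0 as well. Lung and heart transcripts also differed among the nodules. Sftpd, which encodes surfactant protein D of the alveoli, was at 4.46 in nodule 1, 2.27 in nodule 2 and -6.00 in nodule 3. The airway gene Scgb1a1, which encodes the club cell secretory protein, was at 4.11, 3.09 and -5.27. In contrast, the atrial myosin light chain Myl7 was at -4.75 in nodule 1, -3.22 in nodule 2 and 3.37 in nodule 3. Nodules 1 and 2 therefore carried the higher levels of lung genes and nodule 3 the higher level of the heart gene. The part of such transcripts in the results below was not tested.

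Far more genes were lower in the nodules by a large margin than were higher. All 3 nodules lay on the same side of the irradiated primary for 12873 features (68.1%), above it for 6852 (36.2%) and below it for 6021 (31.8%), and the median difference over all features was 0.034. When every nodule had to differ by at least 1 on the log2 scale, 316 features (1.67%) were higher and 911 (4.82%) were lower. With a margin of at least 3, 11 features (0.0582%) were higher and 169 (0.894%) were lower. By limma 704 features were called (3.72%): 172 (0.909%) rose and 532 (2.81%) fell, of which 122 and 266 had a gene name. Those that rose at least 2-fold numbered 140 (0.74%) and those that fell at least 2-fold 425 (2.25%). Of the 17166 features well above background on all 4 arrays, 153 rose and 404 fell. The counts over all features were 1341 and 1846 without nodule 1, and 29 and 160 without nodule 3. Counts of list members given below for those settings are to be read beside these. The median range between the 3 nodules was 0.308.

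**Figure D1:**
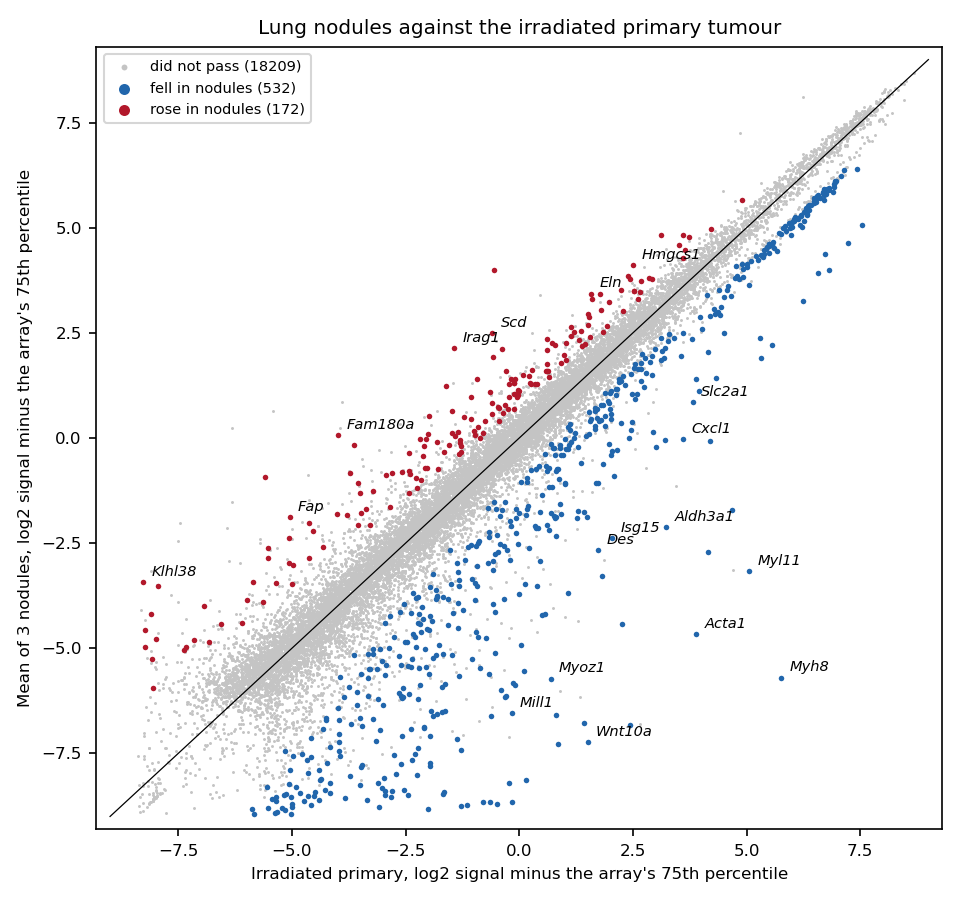
Mean of the 3 nodules against the irradiated primary for the 18913 features tested, both axes as log2 signal minus the array's 75th percentile, with the line of equal level. The 532 features that fell (blue) reach much farther from the line than the 172 that rose (red), and Myh8, Wnt10a and Acta1 lie farthest below it among the labelled genes.

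Skeletal muscle genes were far lower in the nodules, the troponins among them. Of 49 muscle genes listed, 35 could be tested, 21 fell (60.0%, beside 2.81% of all features) and 0 rose, with a median difference of -3.60. Since some of these entered only through their high level in the primary, the 24 that were well above background on all 4 arrays are given too: 16 of them fell. The median of the list was -4.24 in nodule 1, -4.20 in nodule 2 and -3.26 in nodule 3. The log2 of its summed signal was 5.83 to 5.94 in the nodules, 8.02 in the irradiated and 6.20 in the non-irradiated primary. The count was 13 in the authors' deposited matrix, which holds fewer dim probes.

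Some of the largest falls were in thick filament genes. Myh8, the perinatal myosin heavy chain, was at -7.24, -6.80 and -3.06 in nodules 1, 2 and 3, at 5.77 in the irradiated primary and at 3.34 in the non-irradiated primary. All nodules were far below both primaries and nodule 3 was the highest of them, the only nodule in which the probe was well above background. The fitted difference was -11.47 ± 1.72 (SE, adjusted p = 0.0457), which includes 2 readings not well above background, and the call was lost in 4 of 7 processing settings. Myh4, the fastest adult myosin, was at -6.29, -7.22 and -6.98 in the nodules, not well above background in any, against 2.45 and -1.49 in the irradiated and non-irradiated primary. Its level in the nodules was therefore at least 522-fold lower than in the irradiated primary. Myh2, the myosin of fast oxidative fibres, was at least 70.9-fold lower, and Mybpc1, which binds myosin along the thick filament, at least 111-fold lower. Embryonic myosin Myh3 was well above background in every nodule, at -6.40 to -6.00 against -2.58, and fell by 3.59 on the log2 scale.

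Thin filament and regulatory genes fell in the same samples. Acta1, skeletal alpha actin, was at -5.02, -5.29 and -3.68 in the nodules, 3.89 in the irradiated and 1.61 in the non-irradiated primary. Myl11, the fast regulatory light chain, was at -3.50, -3.05 and -2.96 against 5.06 and 2.90. For both genes the nodules lay far below either primary without overlap. Of 8 troponin genes tested, which encode the calcium switch of the thin filament, 5 fell (62.5%, beside 2.81% of all features) and 0 rose. The fast troponin I gene Tnni2 was at 1.86, 1.94 and 1.94 in the nodules and 5.32 in the irradiated primary, with a difference of -3.41 ± 0.11 (SE, adjusted p = 0.00394). The slow troponins Tnnt1 and Tnni1 fell by 5.11 and 3.99, the second well above background in 2 of the 3 nodules. Of the others, the cardiac gene Tnni3 was at -4.37, -4.49 and 0.81 against -4.08, so nodule 3 lay above the primary and the rest slightly below.

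Energy, calcium and regulatory genes of muscle followed. Ckm, muscle creatine kinase, was at -2.86, -3.99 and -1.27 in the nodules and 4.16 in the irradiated primary. Pvalb, the calcium buffer parvalbumin, was at -5.75, -5.59 and -5.27 against 0.11. Ampd1, the muscle AMP deaminase, was at -5.23, -4.65 and -4.86 against 0.03. In each case every nodule was lower by more than 4 units. Pygm, which breaks down glycogen, fell by 3.59 and Casq1, the calcium store protein of fast fibres, by 2.13, with its 3 nodules between -0.18 and -0.12. Myoz1 and Ankrd23, both proteins of the sarcomere, had nodules within 0.1 of each other and fell by 6.41 and 3.70. Tmod4, which caps actin filaments, fell by 4.77 and the ubiquitin ligase Trim63 by 4.20.

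Regulators of the muscle lineage also fell, at much lower levels. Myog, a factor that drives muscle differentiation, was at -3.54, -3.96 and -4.03 in the nodules, -0.96 in the irradiated and -2.30 in the non-irradiated primary, a difference of -2.88 ± 0.27 (SE, adjusted p = 0.0178). Myod1 was not well above background in any nodule and was at least 2.83-fold lower, and Lbx1, a factor of migrating muscle precursors, at least 2.66-fold lower. Des, the desmin filament shared by all muscle types, was at -2.99, -2.67 and -2.34 against 1.73 and fell by 4.40. Genes measured by disagreeing probes are not relied on here: for Jsrp1 and Pax3 the brightest probe fell and the other gave 0.84 and 0.04. The counts of calls use the brightest probe and leave no gene out for this.

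Heart muscle genes had no common direction. Of 14 tested, 2 fell (14.3%, beside 2.81% of all features) and 0 rose, with a median difference of -0.48, and the nodules gave -1.87, -0.77 and 0.58. Of the 10 well above background on all 4 arrays 0 fell, with a median of -0.17. The count of falls was 4 without nodule 3 and 0 in the deposited matrix. Myl2, the ventricular light chain that slow skeletal fibres also use, was at least 15.3-fold lower. Myl3, its partner in the same fibres, was at -7.81, -6.66 and -6.24 against -2.09, well above background in 1 nodule only, and fell in the fit, with no exact size. The calcium store gene Casq2, which is not among the 14, rose. It was at -1.09, -1.55 and -1.26 in the nodules, -3.51 in the irradiated and -5.10 in the non-irradiated primary. Its nodules did not overlap the primaries (2.21 ± 0.25, SE, adjusted p = 0.0258). Myh6, the atrial myosin, was at 3.87 in nodule 3 but at -2.84 and -3.03 in the other nodules and -0.34 in the irradiated primary.

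Interferon-stimulated genes were lower in the nodules. These genes are switched on when interferon activates a transcription factor complex that binds a short DNA element called ISRE, and they restrict viruses and alert immune cells. Of 63 listed, 48 were tested, 9 fell (18.8%, beside 2.81% of all features) and 0 rose. In 34 all nodules were below the primary (as in 31.8% of all features). The median difference was -0.57, with -0.53, -0.52 and -0.51 in nodules 1, 2 and 3, beside 0.034 over all features. Among the 44 well above background on all 4 arrays, 7 fell. The count was 20 without nodule 1, 2 without nodule 3 and 5 when limma was run with no intensity trend.

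The ISRE core, GAAA repeated after 2 bases of any kind, was searched on both strands in the 300 bases from 250 before to 50 after each start in RefSeq, build GRCr8. It was found in 21 of the 39 list members with an entry (53.8%), in 6 of the 7 of these that fell, and in 3.77% of all 27457 promoters. A match is only these letters in this window, not a shown binding site. The windows of 150 bases before the starts of Ifit3 (chr1:241527176-241527325, plus strand), Gbp2 (chr2:234005577-234005726, plus strand), Gbp5 (chr2:233910849-233910998, plus strand) and Rsad2 (chr6:48788121-48788270, minus strand) are shown, 5′ to 3′ on the strand of the gene, since these genes fell and each holds 1 match. Capitals mark the match, which reads as TTTC repeated since it lies on the opposite strand. Its first base lies 44, 31, 56 and 147 bases before the start.
Ifit3: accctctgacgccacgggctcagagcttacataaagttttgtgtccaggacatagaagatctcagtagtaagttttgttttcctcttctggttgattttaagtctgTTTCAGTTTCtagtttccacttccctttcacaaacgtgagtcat
Gbp2: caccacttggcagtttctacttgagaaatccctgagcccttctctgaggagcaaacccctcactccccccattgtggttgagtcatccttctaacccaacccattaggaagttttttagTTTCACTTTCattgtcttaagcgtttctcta
Gbp5: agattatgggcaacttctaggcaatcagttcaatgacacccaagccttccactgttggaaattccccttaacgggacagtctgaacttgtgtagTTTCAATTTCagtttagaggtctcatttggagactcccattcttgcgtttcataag
Rsad2: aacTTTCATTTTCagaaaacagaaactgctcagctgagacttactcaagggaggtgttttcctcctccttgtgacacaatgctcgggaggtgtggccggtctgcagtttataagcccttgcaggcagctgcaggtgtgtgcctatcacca

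Isg15, a ubiquitin-like protein made in the interferon response, was at -2.15, -2.48 and -2.51 in the nodules, 2.04 in the irradiated and -1.24 in the non-irradiated primary. The irradiated primary stood above all other samples. Rsad2, which encodes the antiviral enzyme viperin, was at -6.67, -7.33 and -8.10 against -2.22 and -5.44, and Ifit3, which binds foreign RNA, at -7.39, -7.53 and -7.38 against -3.96 and -6.64. Neither was well above background in any nodule, and their levels were at least 21.4-fold and at least 6.38-fold lower. Usp18, which removes Isg15 from proteins, was at -1.73, -1.58 and -2.18 in the nodules, 0.16 in the irradiated and -2.46 in the non-irradiated primary. It fell against the irradiated primary (-1.98 ± 0.28, SE, adjusted p = 0.04), and the nodules lay above the non-irradiated value. The guanylate binding proteins Gbp2 and Gbp5, which attack membranes of intracellular microbes, fell by 1.59 and 1.39. Ifitm3, which blocks viral entry, was at 0.36, 0.41 and 0.32 against 2.25 and fell by 1.89. The nucleic acid sensors Tlr3 and Sting1 fell by 2.36 and 2.46, and both stood high in either primary (-2.48 and -2.60 for Tlr3, 0.90 and 1.59 for Sting1).

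Other members did not pass. Irf9 differed by 0.08 ± 0.18 and Mx2 by -0.19 ± 0.12. Irf7, which amplifies the response, was at 1.95, 1.99 and 1.59 against 2.63 and -0.93, a difference of -0.79 ± 0.20 that did not pass (adjusted p = 0.117). For Irf7 and Oas1a (-2.96, -2.93 and -3.32 against -2.43 and -5.33) the nodules were closer to the irradiated than to the non-irradiated primary.

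Among chemokines, which call leukocytes to a tissue, several ligands fell in the nodules and 1 receptor rose. Of 30 chemokine and receptor genes tested, 6 fell (20.0%, beside 2.81% of all features), 1 rose (3.33%, beside 0.909%) and the median difference was -0.64. All nodules were below the primary for 17 genes and above it for 4 (as for 31.8% and 36.2% of all features). Some ligands entered only through their level in the primary, and of the 27 genes well above background on all 4 arrays 4 fell and 1 rose. The count of falls was 12 without nodule 1, 3 without nodule 3, and 4 in the deposited matrix. The neutrophil attractant Cxcl1 was at -0.27, 0.32 and -0.11 in the nodules, 3.59 in the irradiated and -1.47 in the non-irradiated primary. Its nodules lay between the primaries, and it fell against the irradiated one by 3.61 ± 0.26 (SE, adjusted p = 0.0111). Cxcl2, of similar function, was not well above background in any nodule and at least 5.53-fold lower. The monocyte attractant Ccl2 was at 0.73, 0.30 and 0.13 against 2.48 and 1.36 and fell by 2.09, and Ccl7 fell by 1.79. Cxcl10 and Cxcl11, interferon-induced ligands of the T cell receptor CXCR3, fell too: Cxcl10 was at -0.83, -0.62 and -0.43 against 1.84, and Cxcl11 was at least 14.2-fold lower. The receptor Cx3cr1, carried by monocytes and microglia, rose: -1.18, -1.23 and -1.34 in the nodules against -3.21, with -0.27 in the non-irradiated primary. Icam1, which lets leukocytes adhere to vessels, was at -1.84, -1.67 and -2.13 against 0.82 and 0.92 and fell by 2.70.

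Genes that display the cell to immune surveillance were also lower. Class I molecules carry peptides to killer T cells, and related stress ligands engage natural killer cells. Of 29 class I genes tested, 5 fell (17.2%, beside 2.81% of all features) and 0 rose. In 24 all nodules were below the primary (as in 31.8% of all features), and the median was -0.43. Of the 26 well above background on all 4 arrays 2 fell, the other falls having entered only through their level in the primary. The count was 12 without nodule 1, 2 without nodule 3 and 2 in the deposited matrix. The rat class I gene RT1-A2 was at 1.99, 1.98 and 2.00 in the nodules, 2.70 in the irradiated and 3.15 in the non-irradiated primary. Although small, this difference of -0.71 ± 0.11 (SE, adjusted p = 0.0458) was far larger than the nodules' spread. The primary's own spread was not measured, and the call was lost in 3 of 9 processing settings. RT1 genes share sequence, and the array cannot always separate them. The class I-like gene Mill1 stood at -6.57, -6.57 and -6.48 in the nodules, -0.17 in the irradiated and -5.45 in the non-irradiated primary. Only the irradiated primary was high, and the nodules were at least 80.7-fold lower. Raet1l, a ligand of the killer cell receptor NKG2D, showed the same order (-7.15, -7.22 and -7.27 against -3.15 and -6.94) and was at least 11.2-fold lower. The lipid-presenting Cd1d1 was at least 12.9-fold lower, but was high in both primaries, at -2.95 and -2.22. B2m, the shared light chain, was at 3.65, 3.38 and 2.99 against 4.23 and did not pass (-0.89 ± 0.27, SE, adjusted p = 0.159), and Psmb9 and Tap1, which make and pump peptides, differed by -0.14 and -0.10.

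Among genes of leukocytes themselves, 2 of 12 T and NK cell genes tested fell (16.7%, beside 2.81% of all features; 3 without nodule 1 and 1 without nodule 3). Of the 8 well above background on all 4 arrays, 1 fell. Cd2, an adhesion receptor of T cells, was well above background only in the irradiated primary, at -4.64, and not well above background in any nodule. Cd7 was at -4.42, -4.43 and -4.51 against -1.58 and fell by 2.88. Of 27 macrophage genes 1 fell (3.70%), near the share of all features, and 0 of the 23 well above background on all 4 arrays did. Without nodule 1, 5 fell and 3 rose, and without nodule 3 none passed. The gene that fell was Arg1, which uses up arginine, at -8.01, -6.10 and -7.16 against -1.95 and -4.25. It was well above background in 1 of the 3 nodules. Cd68 of macrophages was at -3.62, -3.32 and -3.44 against -2.36 and did not pass, and Adgre1, which encodes F4/80, differed by 0.12 ± 0.25.

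Genes of the response to low oxygen were lower in the nodules. When oxygen is short, HIF factors bind the core ACGTG and raise glucose uptake, glycolysis and acid export. Of 51 genes tested, 9 fell (17.6%, beside 2.81% of all features), 0 rose and 42 had all nodules below the primary (as did 31.8% of all features), with a median of -0.67. The nodules gave -0.67, -0.68 and -0.78. The number of falls was 27 without nodule 1 and 2 without nodule 3. It was 4 when arrays were scaled to their median, a scaling that moves all differences up by 0.093, 5 with no intensity trend and 15 with normexp correction.

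The core was searched in the same RefSeq windows on both strands. It was present in 24 of 43 list members with an entry (55.8%) and in 5 of the 7 of these that fell. Of all promoters 19.7% held it, and of those of the named genes tested 24.7%. The window of Slc2a1, the member with the largest difference, is shown (build GRCr8, chr5:138002372-138002521, plus strand). Capitals mark the core, whose first base lies 51 bases before the start.
Slc2a1: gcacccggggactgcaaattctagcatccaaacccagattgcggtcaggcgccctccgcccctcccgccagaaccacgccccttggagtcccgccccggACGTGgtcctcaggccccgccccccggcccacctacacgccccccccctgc

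Slc2a1, the glucose transporter GLUT1, was at 1.18, 0.77 and 0.61 in the nodules, 3.82 in the irradiated and 2.66 in the non-irradiated primary. All nodules were below both primaries. The neuronal-type transporter Slc2a3 was at -2.33, -2.62 and -3.04 against -0.27 and -0.46, and fell by 2.40. Hk2, which traps glucose by phosphorylation, was at -2.09, -1.88 and -1.93 against -0.19, with -1.69 in the non-irradiated primary, and fell by 1.78. Aldoa, a glycolytic enzyme, fell by 1.02. Others of the pathway did not pass: Ldha was at 6.83, 6.92 and 6.91 against 7.49 (-0.60 ± 0.12, SE, adjusted p = 0.0786) and Pgk1 differed by -0.75 ± 0.14 (SE, adjusted p = 0.0623). Car9, the acid-exporting carbonic anhydrase, was at -1.43, -0.97 and -0.80 against 1.00 and 0.12 and fell by 2.07. Angptl4, which blocks lipoprotein lipase, was at -1.62, -1.89 and -1.93 against 0.92, and at -2.77 in the non-irradiated primary. It fell against the irradiated primary by 2.74, with nodules between the primaries. Ero1a and P4ha1, which fold and hydroxylate secreted proteins, fell by 1.56 and 1.33, and Bnip3, which marks mitochondria for removal, by 1.44. The vessel growth factor Vegfa was at 3.13, 2.77 and 2.64 against 3.45 and did not pass.

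Matrix proteases split. The stromelysins and collagenase-3, which cut proteoglycans and collagen, fell, while the membrane protease Fap and the metalloprotease Mmp23 rose. Of 36 genes tested, 4 fell (11.1%, beside 2.81% of all features) and 2 rose (5.56%, beside 0.909%), with a median of -0.07. Without nodule 1 the counts were 9 and 6, and without nodule 3 they were 1 and 0. The deposited matrix gave 2 falls. Some falls entered only through their level in a primary, and of the 32 genes well above background on all 4 arrays 2 fell and 2 rose. Mmp3 was at -4.67, -3.64 and -4.34 in the nodules, 0.51 in the irradiated and 2.24 in the non-irradiated primary, a difference of -4.73 ± 0.42 (SE, adjusted p = 0.016). Mmp10 was at -6.25, -6.85 and -8.38 against -1.38 and -1.18, and Mmp13 at -7.23, -6.65 and -7.78 against -3.96 and -3.70. Both were high in either primary, not well above background in any nodule, and at least 36.5-fold and 6.35-fold lower. The gelatinase Mmp2 was at 5.01, 3.93 and 4.11 against 3.04 and 1.80, above both primaries, but its nodules were spread too widely to pass (1.31 ± 0.45, SE, adjusted p = 0.191).

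The promoters of the 3 enzymes that fell each hold an AP-1 site, TGANTCA, the element bound by Fos and Jun. On either strand it was present in 8 of 29 protease genes with an entry (27.6%), in 3 of the 5 that were called, and in 7.33% of all promoters. Capitals mark the site in the windows of Mmp3 (build GRCr8, chr8:12925131-12925280), Mmp10 (chr8:12974557-12974706) and Mmp13 (chr8:12782679-12782828), all on the plus strand and shown because these neighbours share the site. It starts 71, 61 and 66 bases before the start.
Mmp3: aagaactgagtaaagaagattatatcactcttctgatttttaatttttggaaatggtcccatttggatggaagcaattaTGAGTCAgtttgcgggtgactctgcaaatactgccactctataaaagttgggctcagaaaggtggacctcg
Mmp10: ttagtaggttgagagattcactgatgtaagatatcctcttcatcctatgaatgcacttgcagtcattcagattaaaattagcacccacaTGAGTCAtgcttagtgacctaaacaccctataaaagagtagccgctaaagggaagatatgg
Mmp13: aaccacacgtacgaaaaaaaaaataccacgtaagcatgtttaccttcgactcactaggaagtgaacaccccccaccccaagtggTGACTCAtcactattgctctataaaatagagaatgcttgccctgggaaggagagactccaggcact

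Among genes for the AP-1 proteins and other immediate early factors, 26 were tested. Of these 3 rose (11.5%, beside 0.909% of all features) and 2 fell (7.69%, beside 2.81%). Without nodule 1, 8 fell, and without nodule 3, 0 were called. Fosl2, an AP-1 subunit, was at -3.49, -3.01 and -3.07 against -1.34 and fell by 1.85, while Fos was at -1.51, -1.59 and -1.92 against -1.61 and Jun at 2.16, 2.68 and 2.12 against 2.09. Myc, the growth regulator, was at -1.26, -0.71 and -0.98 against 0.88 and fell by 1.86. Klf6, Klf10 and Nr4a2, also immediate early factors, rose by 0.79, 0.73 and 1.16. Of 16 genes of the secretory programme of senescent cells, 6 fell (37.5%, beside 2.81% of all features; 2 without nodule 3), which repeat falls counted above, and 4 of the 13 well above background on all 4 arrays did.

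Stress and detoxification genes included some of the largest falls. Aldh3a1, an aldehyde dehydrogenase, was at -2.36, -1.98 and -2.02 in the nodules, 3.23 in the irradiated and -2.25 in the non-irradiated primary. Only the irradiated primary was high, and the difference was -5.35 ± 0.21 (SE, adjusted p = 0.00588). Of 18 glutathione transferase genes, whose products attach glutathione to toxic compounds, 4 fell (22.2%, beside 2.81% of all features) and 0 rose. Their median was -0.65, and 8 fell without nodule 1 and 0 without nodule 3. Of the 15 well above background on all 4 arrays 3 fell, with a median of -0.43. Gsta1 was at -2.44, -1.98 and -2.0 against 0.37 and -1.43, and Gsta4 at -0.48, -0.07 and -0.30 against 2.16 and 1.28. In both, the nodules were below either primary. Of 36 NRF2 antioxidant genes, 3 fell (8.33%, beside 2.81% of all features), 11 did so without nodule 1 and 0 without nodule 3. Hmox1, haem oxygenase, was at 1.53, 0.37 and 0.37 against 2.07 and did not pass. Ggt1, which recycles glutathione, was at -2.46, -2.41 and -2.70 against -0.03 and 1.77 and fell by 2.49.

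The ATF4 pathway, which answers amino acid shortage and misfolded proteins, had 5 falls among 46 genes (10.9%, beside 2.81% of all features). It had 0 rises and a median of -0.24. The count was 12 without nodule 1, 0 without nodule 3, 3 under median scaling or in the deposited matrix, and 1 with no trend. Trib3, a pseudokinase target of ATF4, was at -3.80, -4.24 and -4.20 in the nodules, -1.24 in the irradiated and -0.94 in the non-irradiated primary and fell by 2.84. Atf3 was well above background only in the irradiated primary, at -2.60, and at least 16.4-fold lower in the nodules. Ddit3, which promotes cell death, and Asns, which makes asparagine, fell by 1.29 and 0.99. The core TGATGNAA lies in 11 of 38 promoters of this list (28.9%, beside 3.82% of all) and in 1 of the 4 members with an entry that fell. Of 19 heat shock genes 2 fell (10.5%, beside 2.81% of all features), and the count was 0 without nodule 3. Hspb1 fell by 1.62 and Cryab, also a muscle chaperone, by 0.76. Of 29 p53 targets 2 fell (6.90%, beside 2.81% of all features), Ccng1 by 1.16 and Plk2 by 1.37, and the counts were 6 without nodule 1 and 0 without nodule 3. Cdkn1a, the p53-induced cell cycle inhibitor, was at 4.56, 4.43 and 4.38 in the nodules, 4.65 in the irradiated and 3.22 in the non-irradiated primary. Mdm2, the p53 ligase, was at 2.72, 2.69 and 2.97 against 3.14 and 1.27. For these p53 targets the nodules were close to the irradiated primary and all above the non-irradiated one.

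**Figure D2:**
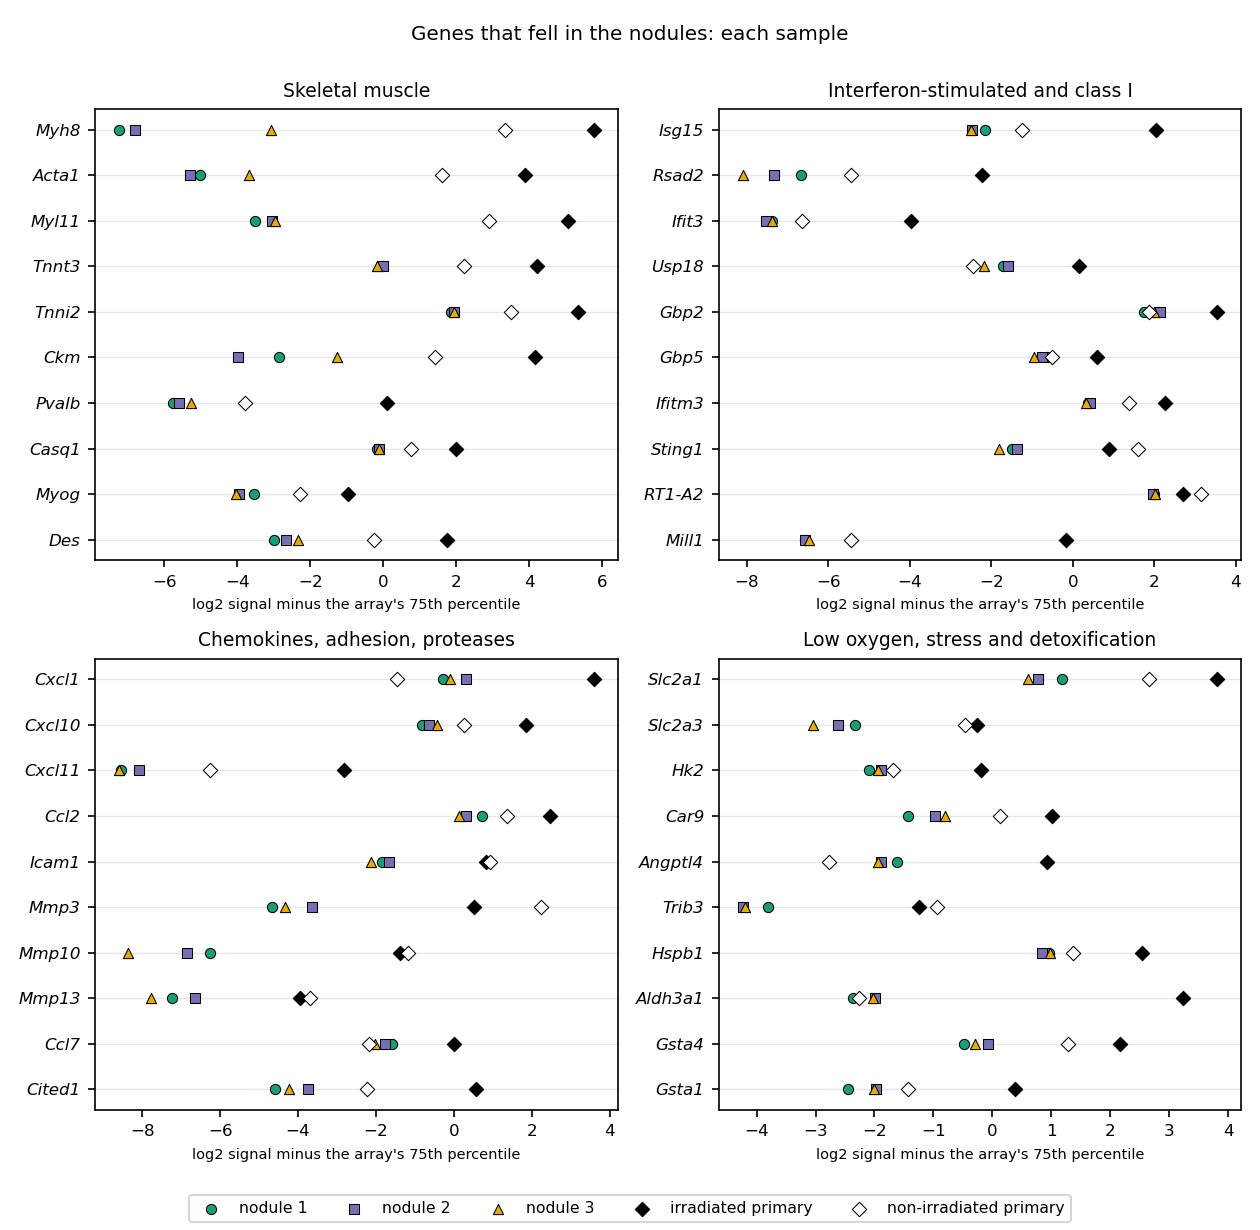
Level of 40 genes that fell, in each of the 5 samples, on an axis of log2 signal minus the array's 75th percentile. The nodules (coloured) lie left of the irradiated primary (black diamond) in every row, while the non-irradiated primary (open diamond) is close to the nodules for Mill1, Aldh3a1 and Usp18 and on the side of the irradiated primary for Mmp3, Mmp10 and Sting1.

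Lipid synthesis genes were higher in the nodules. SREBP factors switch on the enzymes that build cholesterol and unsaturated fatty acids when membranes run short of sterol. Of 32 sterol genes tested, 4 rose (12.5%, beside 0.909% of all features) and 0 fell. In 26 all nodules were above the primary (as in 36.2% of all features), and the median was 0.97. The nodules gave 0.72, 0.88 and 1.40. The number that rose was 20 without nodule 1 and 0 without nodule 3. It was 0 under median scaling, under quantile normalization or with no trend. With no filter on dim probes it was 1, in the deposited matrix 2 and with normexp correction 6. Hmgcs1, an early step of the pathway, was at 4.13, 3.88 and 4.35 in the nodules, 2.51 in the irradiated and 3.23 in the non-irradiated primary, with a difference of 1.61 ± 0.21 (SE, adjusted p = 0.0351). Every nodule was above both primaries. Sqle, which oxidises squalene, was at 3.74, 3.69 and 4.16 against 2.40 and 2.53, and Idi1, which makes an isoprenoid unit, at 2.09, 2.10 and 2.59 against 0.72 and 1.96. They rose by 1.47 and 1.54. Srebf2, the master regulator, rose by 1.18. The sterol element letters TCACNCCAC were in 0 of 24 of these promoter windows and in 1.13% of all.

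Of 23 genes of fatty acid synthesis 1 rose (4.35%, beside 0.909% of all features). The count was 8 without nodule 1 and 1 without nodule 3. The gene was Scd, the desaturase that makes oleic acid, at 2.48, 2.23 and 2.79 in the nodules, -0.59 in the irradiated and 0.18 in the non-irradiated primary. Fasn, the synthase, was at 2.72, 2.96 and 3.33 against 2.46 and did not pass. Fat storage genes went both ways. Pnpla2, the lipase that starts fat breakdown, was at 1.42, 1.31 and 1.11 against 0.26 and rose by 1.02. Plin5, which coats lipid droplets in oxidative tissue such as muscle, was well above background only in the irradiated primary, at -1.28, and at least 41.0-fold lower in the nodules.

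Stromal and matrix genes went both ways. Among rises of named genes well above background on all 4 arrays, Fam180a and Irag1 had the largest distance of the nearest nodule. Fam180a, of unclear function, was at 0.48, -0.08 and -0.16 in the nodules, -3.99 in the irradiated and -5.49 in the non-irradiated primary, a difference of 4.06 ± 0.31 (SE, adjusted p = 0.0117). Irag1, a target of cGMP kinase that lowers calcium in smooth muscle, was at 2.26, 2.21 and 1.93 against -1.43 and -3.97, a difference of 3.56 ± 0.18 (SE, adjusted p = 0.00661). For both, the nodules stood clear of the primaries. Gucy1a1, a subunit of the enzyme that makes cGMP, went the other way: -1.65, -1.86 and -1.81 in the nodules against 1.43 and 0.34. Fap, a protease of activated fibroblasts, was at -1.52, -2.31 and -1.80 against -5.05 and -3.32 and rose by 3.17. Of 15 fibroblast and mesothelial genes, Fam180a being counted among them, 3 rose (20.0%, beside 0.909% of all features) and 0 fell. These counts were 7 and 3 without nodule 1 and 1 and 0 without nodule 3. The list had a median of 0.68, but of -0.27 in nodule 1 and 0.025 in the deposited matrix. Of its 13 genes well above background on all 4 arrays 2 rose, with a median of 0.029. Of 19 pericyte and smooth muscle genes 2 rose (Irag1 and Itga8, 10.5%, beside 0.909%) and 1 fell (Des, 5.26%, beside 2.81%).

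Of 53 matrix genes 2 rose (3.77%, beside 0.909% of all features) and 3 fell (5.66%, beside 2.81%), with a median of 0.32. Without nodule 1 the counts were 17 and 11, and without nodule 3 they were 1 and 0. Eln, elastin, which gives lung and vessels their recoil, was at 3.48, 3.43 and 3.40 in the nodules, 1.59 in the irradiated and 2.62 in the non-irradiated primary. These nodules agreed within 0.1 and lay above both primaries (1.85 ± 0.11, SE, adjusted p = 0.008). Col3a1, a collagen of elastic tissue, rose by 0.84, while Col1a1 was at 4.53, 3.82 and 3.89 against 3.97. Tnc, tenascin C of wounds and gliomas, was at -2.17, -1.67 and -1.71 against 0.77 and fell by 2.62. Thbs1, which activates TGF-beta, fell by 1.99 and Loxl1, which crosslinks elastin, by 1.34. C3, the central complement protein, rose: 2.31, 2.43 and 1.62 in the nodules against -0.38 and -1.49. So did Pla2g2a, a secreted phospholipase, at 1.44, 2.36 and 2.01 against -0.58. Cp, the copper carrier ceruloplasmin, was at 0.57, 0.90 and 0.63 against 2.00 and fell by 1.30. Cited1, a transcription cofactor, was at -4.59, -3.76 and -4.23 against 0.57 and fell by 4.76.

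Wnt signalling held members at both extremes. Wnt ligands act through Frizzled receptors and beta-catenin, and Nkd1 is a feedback inhibitor made in response. Of 38 genes tested, 3 rose (7.89%, beside 0.909% of all features) and 1 fell (2.63%, near the 2.81% of all features), with a median of 0.26. The numbers were 8 and 3 without nodule 1, 1 and 1 without nodule 3, and 1 and 0 in the deposited matrix. Wnt10a was at -7.71, -6.54 and -7.43 in the nodules, 1.5 in the irradiated and -4.75 in the non-irradiated primary. It was not well above background in any nodule and at least 273-fold lower than in the irradiated primary. The related ligand Wnt10b was at 1.45, 1.29 and 1.47 against -0.09 and -3.49 and rose by 1.49. Nkd1 was at -0.73, -0.68 and -1.10 against -3.72 and -3.78 and rose by 2.89. Ror2, a Wnt5a receptor, was not well above background in the irradiated primary and at least 1.71-fold higher in the nodules. Axin2, another feedback gene, was at -1.90, -1.17 and -1.47 against -2.38 and did not pass.

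Retinoid genes had 2 rises (11.1%, beside 0.909% of all features) and 1 fall (5.56%, beside 2.81%) among 18 tested, with a median of 0.58. The counts were 9 and 3 without nodule 1 and 0 without nodule 3. Aldh1a3, which makes retinoic acid, was at -1.90, -1.66 and -1.54 against -3.36 and -2.73 and rose by 1.66. Rarb, a receptor that retinoic acid induces, rose by 1.22, with nodules between -2.10 and -2.04. Cyp26b1, which destroys retinoic acid, was at 0.01, 0.19 and -0.07 against 1.47 and 1.80 and fell by 1.43. The guidance cue Slit3 was at -2.60, -2.04 and -2.46 against -5.05 and rose by 2.69, while the netrin receptor Unc5c was at -4.09, -3.83 and -3.44 against -1.81 and fell by 1.97. Ntrk2, the receptor of BDNF, was at -0.51, -0.36 and -0.43 against -2.12, with -0.33 in the non-irradiated primary, and rose by 1.69. Pmp22, a myelin protein also made by fibroblasts, rose by 1.35. Gpm6a, a membrane protein of neurons, was well above background only in the nodules and at least 3.60-fold higher. Gli2, the Hedgehog effector, fell by 2.70, and Notch4 by 2.22.

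Of 8 erythroid genes tested 1 rose (12.5%, beside 0.909% of all features). In every nodule 5 were higher and 2 were lower (as were 36.2% and 31.8% of all features). Alas2, which starts haem synthesis in red cells, was at 1.77, 1.35 and 0.61 in the nodules, -1.62 in the irradiated and -3.15 in the non-irradiated primary (2.86 ± 0.46, SE, adjusted p = 0.0499). The globin gene Hba-a1 was at 8.38, 8.27 and 7.69 against 6.24 and 4.89 and narrowly did not pass (1.87 ± 0.30, SE, adjusted p = 0.0508). The order of samples was the same for both: nodule 1, nodule 2, nodule 3, the irradiated and then the non-irradiated primary. The call count was 4 without nodule 1 and 3 without nodule 3, and the list's median was 1.75. Of 24 calcium and sodium channel genes 5 fell (20.8%, beside 2.81% of all features) and 1 rose (4.17%, beside 0.909%). The counts were 8 and 3 without nodule 1, and 2 and 0 without nodule 3. Of the 17 well above background on all 4 arrays, 2 fell and 1 rose, with a median of -0.06. Cacna1b, the N-type channel of nerve endings, was at -0.70, -0.96 and -1.0 against -2.94 and rose by 2.05. The T-type channel gene Cacna1h was at -6.54, -5.79 and -7.18 against -1.63 and -6.33, well above background in 1 nodule only, and fell in the fit, with no exact size. Cacna1g was at least 8.82-fold lower. The muscle subunit Cacng1, well above background in 2 of the 3 nodules, fell too.

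Other genes that rose had varied roles. Fry, a scaffold of cell shape and mitosis, was at 1.40, 1.42 and 1.42 in the nodules, -0.93 in the irradiated and 0.40 in the non-irradiated primary and rose by 2.34 ± 0.12 (SE, adjusted p = 0.00661). Abcb9, a lysosomal peptide transporter, was at 0.52, 0.55 and 0.84 against -1.47 and rose by 2.11. Ica1, of secretory vesicles, was at -2.93, -2.39 and -2.54 against -5.53 and rose by 2.91. Prss12, a neuronal protease, and Bmp15, a growth factor of the egg, were well above background only in the nodules of this comparison, at least 2.10-fold and 3.07-fold higher. Ace, the angiotensin-converting enzyme of pulmonary endothelium, was at 0.40, -0.03 and -0.03 against -1.48 and rose by 1.59. Nostrin, an endothelial protein, rose by 1.96 and the cytidine deaminase Apobec3 by 2.09. Wee1, which delays mitosis, rose by 1.34 and the cell cycle inhibitor Cdkn2c by 0.87, but their calls were lost in 3 and 6 of 9 processing settings. Of 43 cell cycle genes tested 1 rose (2.33%, beside 0.909% of all features), and 0 did so without nodule 3. Klhl38 was not well above background in the irradiated primary and at least 6.11-fold higher in the nodules, and Sslp1l1 was at least 31.1-fold lower.

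**Figure D3:**
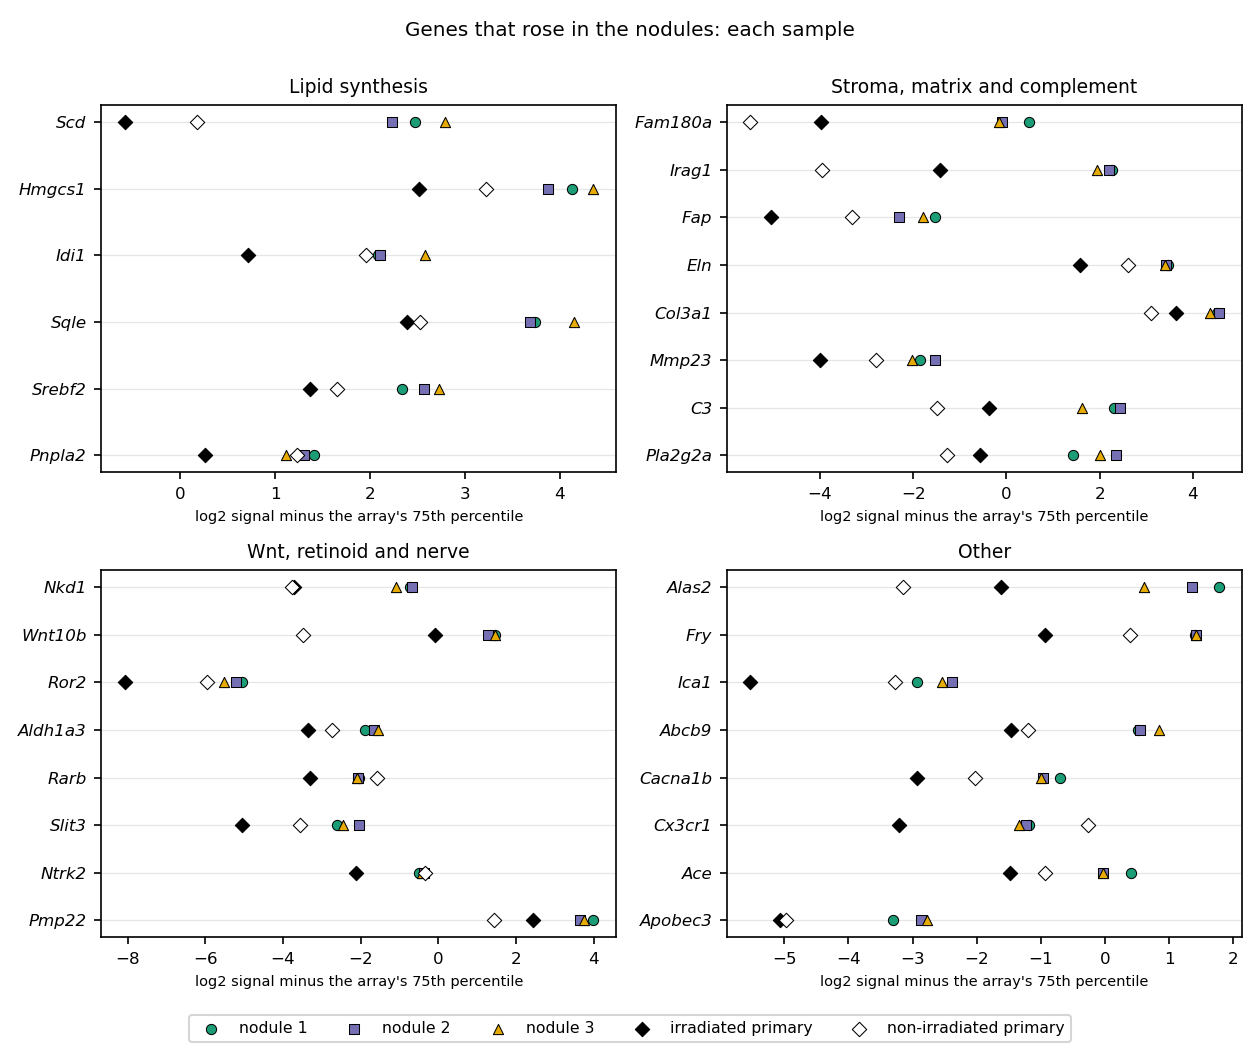
Level of 30 genes that rose, in each of the 5 samples, on an axis of log2 signal minus the array's 75th percentile. The nodules (coloured) lie right of the irradiated primary (black diamond) in every row, and the non-irradiated primary (open diamond) lies below both for Fam180a, Irag1, Wnt10b and Alas2 but near the nodules for Ntrk2 and Rarb.

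The genes with the largest lower bounds in the nodules' favour included lung genes, and the nodules disagreed on them. Sftpd was at least 77.6-fold higher than in the irradiated primary on average, but nodule 3, at -6.00, was close to the primary's own reading of -6.31. Cyp2f4, a cytochrome of club cells, was at -0.88, -0.38 and -5.18, and the lung oxidase Fmo2 at -0.80, -1.50 and -5.08. On the mean of the 3 nodules, which every bound in this paragraph uses, they were at least 14.8-fold and 11.9-fold higher. For nodule 3 alone, the lowest in both genes, the bound is smaller. Ism1, a secreted protein, was at 0.51, -1.80 and -4.74 and at least 16.3-fold higher. Myl7 was at least 22.7-fold higher through nodule 3. The neutrophil protease Prtn3 was at -4.09, -1.27 and -2.13 and at least 9.27-fold higher, with nodule 2 the highest. Gpc3 and Slc16a11 were at least 9.87-fold and 8.64-fold higher, each highest in nodule 1 and lowest in nodule 3. None of these 8 genes passed limma: the adjusted p was 0.427 for Sftpd and 0.457 for Myl7. Of 13 alveolar genes 0 were called by limma and 2 had an unadjusted p under 0.05. The log2 of their summed signal was 6.64, 6.20 and 5.98 in the nodules, 5.55 in the irradiated and 6.27 in the non-irradiated primary. Airway and cilia genes summed to 4.47, 3.77 and 1.81 against 1.56 and -0.60. Of these 11 genes 1, the ciliary gene Tekt4, fell (9.09%, beside 2.81% of all features), while the median difference of the list was 1.17.

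Other programmes had no calls by limma. Over all features 4153 (21.96%) had an unadjusted p under 0.05. Of 28 oxidative phosphorylation genes 0 were called and 4 had such a p, with a median difference of -0.01. The same counts were 0 and 5 of 26 for DNA repair, 0 and 2 of 18 for epithelial-mesenchymal transition, 0 and 5 of 29 for apoptosis, 0 and 6 of 25 for lysosomal genes and 0 and 3 of 17 for housekeeping genes. They were 0 and 8 of 19 for endoplasmic reticulum stress, 0 and 11 of 24 for NF-kB and TNF, 0 and 3 of 18 for the IL-6 family and 0 and 1 of 15 for endothelial genes. Without nodule 1, when 3187 of all 18913 features were called, each of these lists but oxidative phosphorylation had calls. The most were 9 falls and 1 rise for NF-kB and TNF. Without nodule 3 none had any. Normexp correction gave 1 fall each for endoplasmic reticulum stress and housekeeping genes, and the deposited matrix 1 fall for housekeeping genes. Mki67, a marker of dividing cells, was at 4.14, 4.19 and 4.41 in the nodules, 3.48 in the irradiated and 2.98 in the non-irradiated primary, above both but without passing (adjusted p = 0.0754). The mesenchymal filament Vim was at 5.48, 6.13 and 6.23 against 5.45, and Snai1, a repressor of epithelial genes, at -2.43, -2.68 and -2.87 against -3.01. The stem cell factor Sox2 was at -0.49, 1.76 and 1.12 against 1.52 and 3.08, and the neural filament Nes at 1.72, 1.33 and 0.46 against 3.02 and 3.60. Nes was lower in every nodule than in either primary, but its nodules were spread widely.

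**Figure D4:**
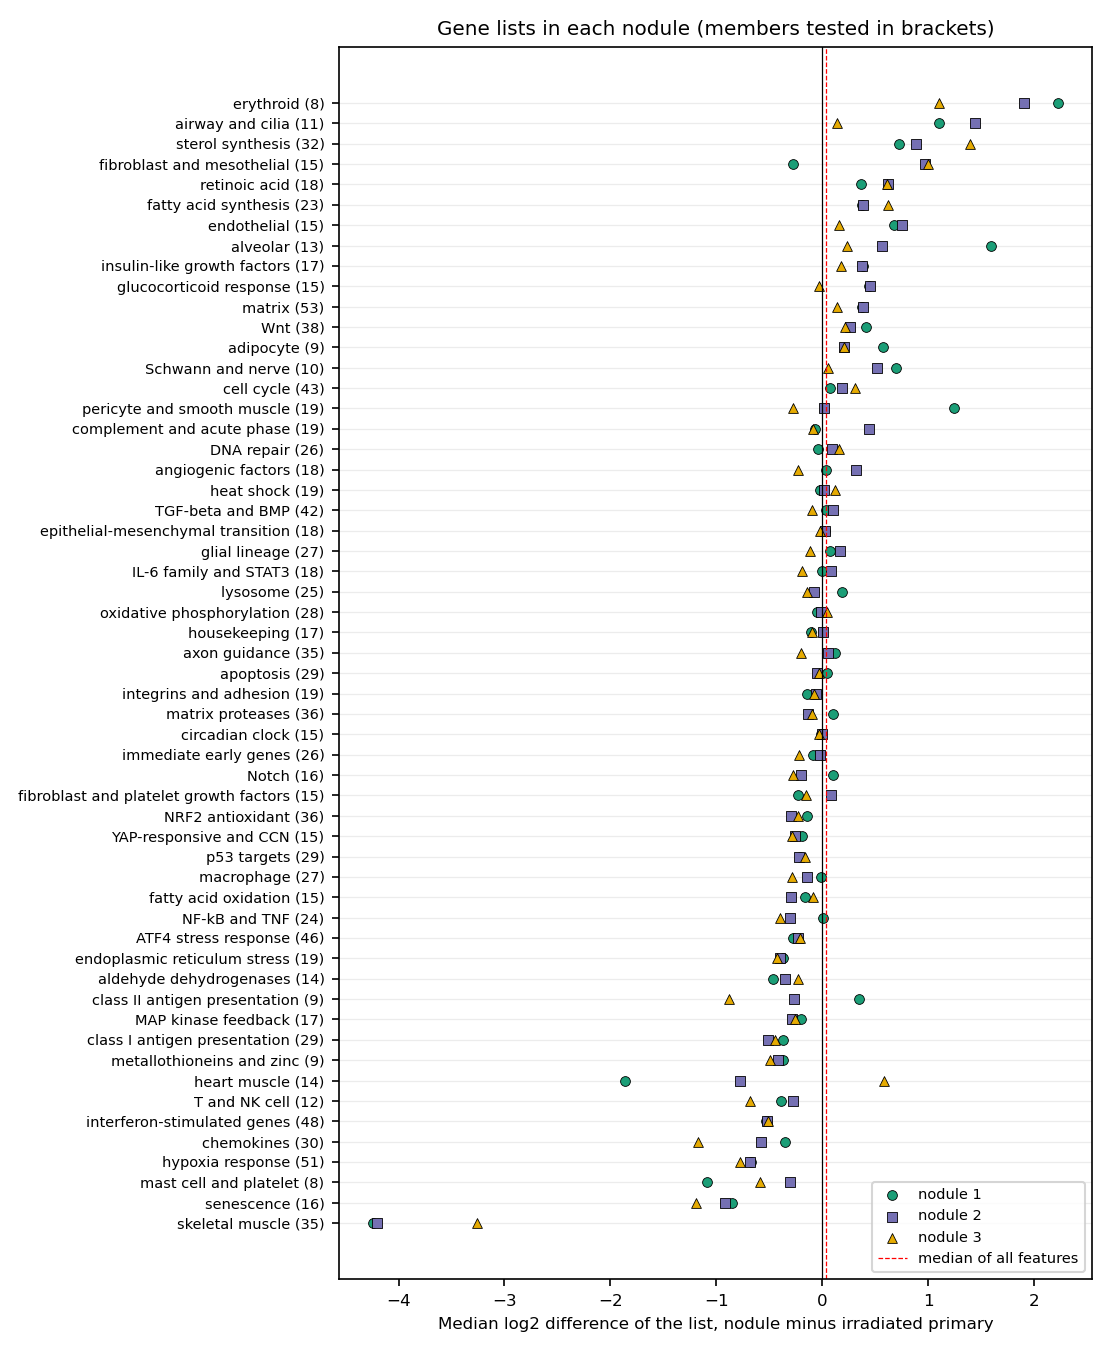
Median log2 difference of each gene list in each nodule (nodule minus irradiated primary), with the members tested in brackets and the median of all features, 0.034, as a dashed line. Of the lists drawn (families and lists with under 8 members tested are left out), skeletal muscle lies lowest in all 3 nodules, at -4.24, -4.20 and -3.26, the erythroid list is the highest in nodule 1, and the heart muscle list is spread from -1.87 to 0.58.

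**Figure D5:**
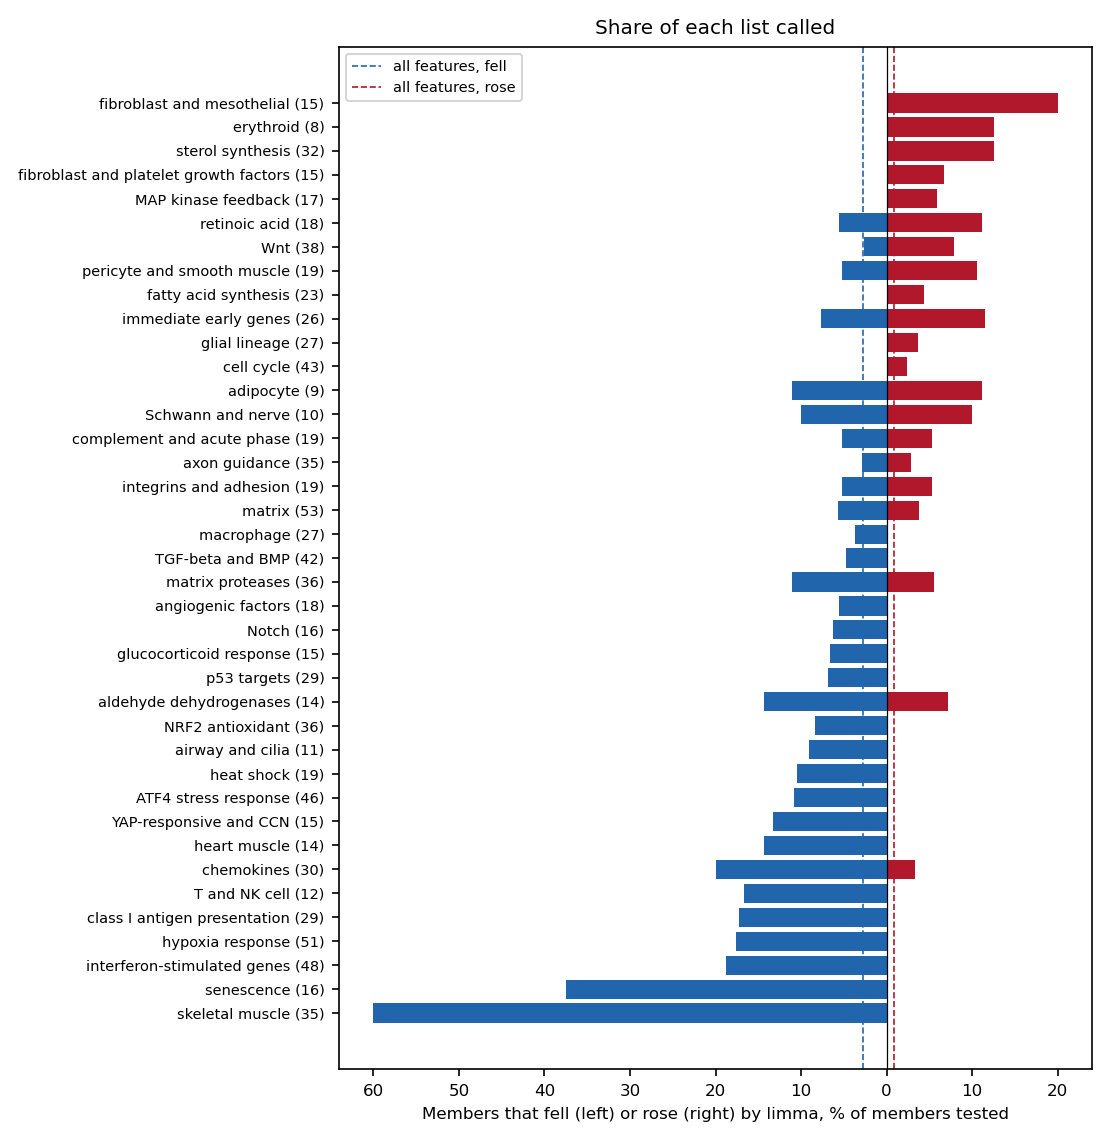
Share of the members tested of each list that fell (blue, left) or rose (red, right) by limma, in percent, with the shares over all features (2.81% and 0.909%) as dashed lines. Lists with under 8 members tested and gene families are not drawn. Skeletal muscle reaches 60.0% to the left, and of the lists drawn those that extend farthest to the right, fibroblast and mesothelial at 20.0% and sterol synthesis and erythroid at 12.5%, rest on 3, 4 and 1 members. Fam180a, of unclear function, is 1 of the 3.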

How the data were processed

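Total RNA of 3 lung nodules and of the irradiated and the non-irradiated primary, extracted with a Qiagen RNeasy kit and labelled with Cy3 by Quick Amp per the labels' protocols, was read on single-colour Agilent rat arrays. The deposited intensity values are spot signals from Agilent Feature Extraction 11.0, named in the submitters' processing notes, with background subtracted and detrended within each array per the file headers. The deposited spot flags are other values of 0 or 1. The deposited log2 matrix covers 18502 probes and was scaled by the authors in a way not given in the sources used here; each column's median was 9.74 and each column correlated with its own array at 0.9996 or more.

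Outlier and control spots were left out (0.603 to 0.865% of an array's 58717 gene spots were outliers), spots of a probe were averaged as log2 signals, and each array's 75th percentile over non-control probes was subtracted. Of 30363 probes used, 18354 (60.4%) were named through the RefSeq accessions of the array files. A feature entered the test if some group had it well above background on each of its arrays, with the brightest probe standing for a gene; 1866 genes had several probes, and in 14 of them probes gave opposite signs, both past 0.5. Of 63 such genes that were called, 58 had all probes on the same side. limma 3.58.1 in R 4.3.3 fitted 3 group means over all 5 arrays (eBayes with an intensity trend, residual degrees of freedom 2, Benjamini-Hochberg adjustment over 18913 features). It was also run on simulated data in which the irradiated primary varied as the nodules did, so that run could not check whether the real one does. A lower bound of a fold sets the bright group's mean against the dim group's, each dim array taken at the higher of its own reading and its lowest well-above-background level. The latter were -6.46, -6.69 and -6.77 for the nodules and -6.03 for the irradiated primary.

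Named genes were the 15 each way with the largest distance of the nearest nodule, up to 8 lower bounds each way, the 5 each way with the narrowest nodules among differences of at least 2, and members of gene lists; a few outside these were named after their values were seen, and a few covered by the rule are not reported here. The members and lists were chosen with earlier results of these data known. Alternatives were array median scaling, quantile normalization, normexp (run on median spot signals, the column the files hold), other probe filters, the mean of a gene's probes, no trend, the deposited matrix, leaving out the non-irradiated primary, and leaving out each nodule. The number of arrays limits the precision.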

Additional observations from a re-analysis of the deposited data

How the results depend on the processing

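The number of features called was 438 with arrays scaled to their median, 399 with no intensity trend, and 0 to 3187 when 1 nodule was left out. The number that rose was 114 with no filter on dim probes, 75 with no trend and 0 to 1341 with a nodule left out, and the number that fell was 322 under median scaling, 324 with no trend and 0 to 1846 with a nodule left out. Other settings stayed within 1.5 times of the 704 called. With no filter, 10257 features had all nodules below the primary, many of them dim probes. Features with each nodule at least 1 higher numbered 195 when probes had to be above background on all 5 arrays, 201 in the deposited matrix, 132 with normexp correction and 368 to 501 with a nodule left out. Those at least 1 lower numbered 504, 486 and 469 under the first 3 of these settings. Of the 704 calls, 704 were kept without nodule 1, 0 without nodule 2 and 144 without nodule 3. The cause was not tested.

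Of 160 genes followed, 80 kept their call under all 9 processing settings in which they were measured. Among the rest, the calls of Ckm, Cryab, Fosl2, Klf6, Idi1, Srebf2, Alas2 and Unc5c were each lost in 5 of 9 settings. Of the 160 genes, 0 changed sign. Their adjusted p was at most 0.0148 without nodule 1, 0.0513 to 0.224 without nodule 2 and 0.0234 to 0.147 without nodule 3. Over 20 lists and 11 alternatives, 192 of 220 list medians moved by less than the spread between nodules, 26 moved by more and 2 changed sign: the heart muscle list to 0.13 without nodule 2 (-1.22 without nodule 3), and the T and NK cell list to 0.0047 in the deposited matrix. These 20 lists were picked for a median away from 0 and enough members, with families left out, so changes of sign were less likely among them. Of those left out, the calcium and sodium channel family went from -0.46 to 0.038 in the deposited matrix. No paired analysis was possible because there was 1 irradiated primary, which the labels do not link to any nodule. With 1 array of the irradiated primary, its own spread was not measured.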

Other observations

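Features without a gene name made up much of the list: of 7809 tested, 50 rose and 266 fell (4.05% called, beside 3.49% of the named genes). The probe A_64_P046648 was at 4.06, 3.97 and 3.94 in the nodules and 3.66 in the non-irradiated primary, but at -0.55 in the irradiated primary. A_64_P015772 showed the same order, at -0.93, -0.93 and -0.92 in the nodules, -1.52 in the non-irradiated and -5.60 in the irradiated primary, where it was not well above background. In both, the irradiated primary alone was low. The probe A_64_P353412 was at -7.36, -7.59 and -6.86 in the nodules, well above background in none, against 0.86 in the irradiated and -1.09 in the non-irradiated primary, and was at least 181-fold lower.

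Among 1190 features above 4.5 in the irradiated primary, a threshold chosen after the values were seen, 106 fell and 1 rose; selection on the primary's level, a side of the comparison, favours falls. Of those that fell, 91 had no gene name, and their median difference was -0.92 with a median nodule range of 0.162. In 88 of these 91, the non-irradiated primary lay between the irradiated primary and the highest nodule. A group of named bright probes had nearly the same profile as each other. Cyb5r1 was at 4.09, 3.87 and 3.82 in the nodules, 6.57 in the irradiated and 5.67 in the non-irradiated primary. Tcf15 was at 4.07, 4.03 and 3.92 against 6.81 and 5.89, Iba57 at 4.83, 4.59 and 4.49 against 7.23 and 6.42, and Spag7 at 5.21, 4.99 and 4.98 against 7.53 and 6.78. A second, dimmer probe of Cyb5r1 differed by 0.26 where the bright one gave -2.65, and the dimmer probes of Iba57 gave -0.26 and -0.83 where the bright one gave -2.59. Gapdh, often used as a reference gene, was at 6.24, 6.31 and 6.41 against 7.12 and 6.76, and did not pass limma (-0.79, adjusted p = 0.0529).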
